A study of Homo sapiens with 24 samples.

Results

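Transcript levels of 9 genes were followed across 3 human triple-negative breast cancer cell lines and 4 treatments. The genes were the BET family members BRD2 and BRD3, the cereblon ligase genes CRBN, DDB1, CUL4A, CUL4B and RBX1, and the genes of 2 proteins degraded through cereblon in the presence of its ligands, ZFP91 and GSPT1. They were taken by symbol from a deposited table of 14114 genes, in which all 9 were found. The lines, MDA-MB-157 plus MDA-MB-231 plus MDA-MB-468, are established ones that the labels class as basal, without oestrogen receptor alpha or progesterone receptor and without overexpressed HER2. Each line received BETd-246, a BET degrader, at 100 nM, or BETi-211, an inhibitor of BET proteins, at 1000 nM, or thalidomide at 1000 nM, or the solvent DMSO, for 3 h. Each of the 12 groups held 2 libraries, 24 in all, described in the series as biological replicates made independently. That description names both thalidomide and DMSO as controls, so each line had 4 control libraries. Each line is a single cell line, and replicates speak for its cultures only.

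BET proteins bind acetylated histones through paired bromodomains and recruit the transcription elongation machinery to chromatin. Cereblon is the substrate receptor of a cullin-RING ubiquitin ligase, in which DDB1 joins the receptor to a CUL4 scaffold and RBX1 brings in the ubiquitin-conjugating enzyme. Thalidomide and related ligands bind cereblon and alter which proteins it recruits, and degraders of the BETd type carry such a ligand joined to a BET-binding group. BRD2 and BRD3 are thus genes of the target proteins, and the ligase genes encode the machinery a degrader uses.

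Values are FPKM, fragments per kilobase, scaled to all mapped fragments in a library, which sets levels per length and as a share of the library. In these bulk samples, fewer cells of a type and less RNA per cell cannot be told apart. Estimated depths were 42400000 to 63600000 fragments per library. Replicates correlated across genes at 0.992 to 0.998 on the log2 scale, and the lowest value belonged to the thalidomide pair of MDA-MB-231. Those 2 libraries differed in the mitochondrial share of the FPKM sum (13.99% in replicate 1 and 9.79% in replicate 2). For the 9 genes against the controls of that line, a call that either library decides is also given without it. So is a called change that either clearly moves. The mitochondrial share in MDA-MB-157 was 9.65% to 11.98% with BETd-246 and 10.8% to 12.1% with BETi-211, against 8.02% to 10.4% in controls. In MDA-MB-231 it was 14.9% to 15.1% with BETd-246 and 13.4% to 14.3% with BETi-211, against 9.79% to 13.99% in controls. In MDA-MB-468 it was 9.55% to 9.74% with BETd-246 and 8.44% to 8.93% with BETi-211, against 7.18% to 8.33% in controls. Its part in the changes below was not tested. The epithelial keratins KRT8 and KRT18 stood at 147.5 FPKM or more in every library, and EGFR at 10.3 FPKM or more. The basal keratin KRT5 reached 698.5 to 876 FPKM in MDA-MB-468 and at most 0.667 FPKM in the other lines. EPCAM reached 144.7 to 176.1 FPKM in MDA-MB-468, against at most 3.9 FPKM elsewhere, and CDH1 36.4 to 48.4 FPKM, against at most 0.533 FPKM. KRT19 was at most 0.0946 FPKM in MDA-MB-157, against 64.99 FPKM or more in the other lines. VIM ran the other way, at 816.1 FPKM or more in MDA-MB-157 as well as MDA-MB-231, and at most 14.1 FPKM in MDA-MB-468. The fibroblast marker COL3A1 stood at 341.9 to 420.6 FPKM in MDA-MB-157 and at most 0.05 FPKM in the other lines. The immune marker CD14 stood at 50.9 to 68.1 FPKM in MDA-MB-157 and at most 0.73 FPKM in the other lines, and CSF1R (immune) and KDR (endothelial) reached 3.87 and 3.21 FPKM in MDA-MB-157. The fibroblast markers COL1A1, DCN, LUM and PDGFRB stood at 15.9 FPKM or more in MDA-MB-157 and at most 1.71 FPKM in the other lines. The other markers of these lists are not in the table, namely COL1A2 (fibroblast), PTPRC, CD3E, CD68 and MS4A1 (immune) and PECAM1, VWF and CDH5 (endothelial).

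BRD2 moved in opposite directions with the compounds. Its transcripts fell with BETd-246 and rose with BETi-211 in each line. In MDA-MB-157, BRD2 had 26.36 and 26.37 FPKM with BETd-246 and 107.3 and 106.7 FPKM with BETi-211, against 65.43 and 63.44 FPKM with thalidomide and 54.43 and 56.76 FPKM with DMSO. In MDA-MB-231, BRD2 had 53.08 and 54.38 FPKM with BETd-246 and 213.7 and 214.4 FPKM with BETi-211, against 92.79 and 93.38 FPKM with thalidomide and 93.28 and 90.77 FPKM with DMSO. In MDA-MB-468, BRD2 had 28.59 and 27.27 FPKM with BETd-246 and 176.5 and 177.8 FPKM with BETi-211, against 63.58 and 70.73 FPKM with thalidomide and 60.92 and 65.93 FPKM with DMSO. In all 3 lines the degrader libraries lay below every control, the inhibitor libraries lay above every control, and replicates lay close together.

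**Figure D1:**
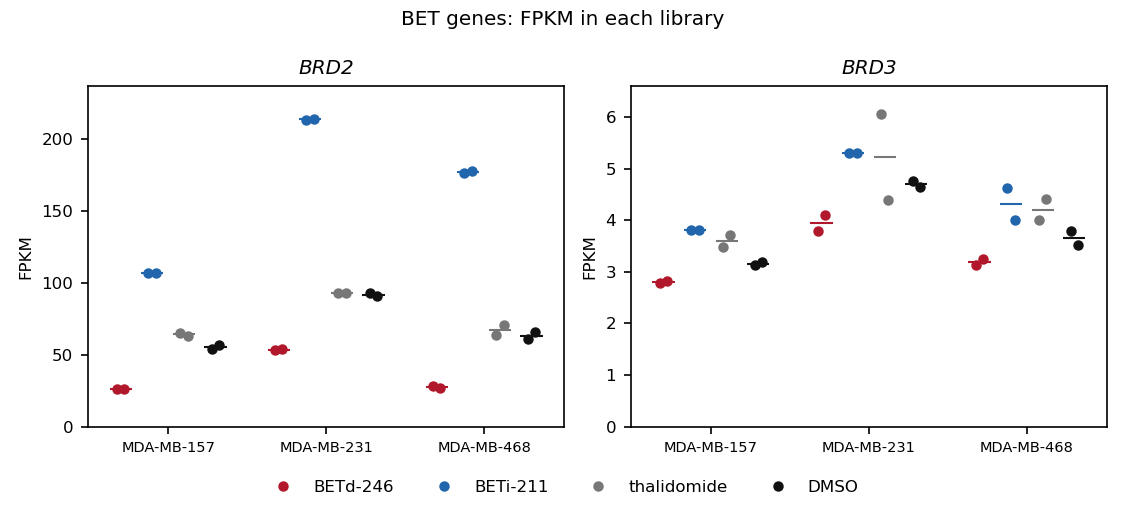
BRD2 and BRD3 levels in FPKM (vertical axes, linear) by line and treatment. Each point is a library and each bar the mean of 2 libraries. For BRD2, the BETd-246 points lie below and the BETi-211 points above all thalidomide and DMSO points of the same line, and for BRD3 the differences are small beside the level.

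Changes were tested on log2(FPKM + 1) with limma, in 1 fit over all 12 groups, against the mean of the thalidomide and DMSO coefficients of the line. A gene was called where its Benjamini-Hochberg adjusted p over the 14114 genes was below 0.05, and sets of 3 values give MDA-MB-157 first, MDA-MB-231 next and MDA-MB-468 last. With BETd-246, BRD2 fell by 1.15, by 0.77 and by 1.19 (SE 0.04; limma adjusted p = 8.54e-13, 9.22e-11 and 3.01e-13). With BETi-211, it rose by 0.83, 1.20 and 1.43 (limma adjusted p = 1.09e-10, 1.11e-12 and 1.32e-13). Set directly against each other, BETd-246 libraries were 3.95-, 3.93- and 6.16-fold lower in BRD2 than BETi-211 libraries (limma adjusted p = 1.81e-14, 2.78e-14 and 9.08e-16). Of all 14114 genes, 66, 65 and 24 had a more negative change in that contrast, that is 0.468%, 0.461% and 0.17% of genes. The doses of the compounds differed, so these values compare treatments and not the compounds at a matched dose. The BRD2 calls held in every alternative run, and the log2 change ranged from -1.26 to -1, -0.87 to -0.58 and -1.29 to -1.01 for BETd-246 across them.

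The size of the BRD2 response differed between lines. The fall with BETd-246 was larger in MDA-MB-157 than in MDA-MB-231 by 0.38 ± 0.06 on the log2 scale (SE, difference -0.38, limma adjusted p = 0.000282). It was also larger in MDA-MB-468 than in MDA-MB-231 (difference -0.42, limma adjusted p = 7.06e-05), and the difference of MDA-MB-157 from MDA-MB-468 was 0.04 (limma adjusted p = 0.767). The rise with BETi-211 was largest in MDA-MB-468, by 0.23 over MDA-MB-231 (limma adjusted p = 0.00829), and smallest in MDA-MB-157, with differences of -0.37 from MDA-MB-231 and -0.60 from MDA-MB-468 (limma adjusted p = 0.000209 and 1.05e-06). BRD2 was the only gene of the 9 with a called difference for BETd-246, where 11.2%, 13.3% and 13.1% of all genes were called for MDA-MB-157 minus MDA-MB-231, for MDA-MB-468 minus MDA-MB-231 and for MDA-MB-157 minus MDA-MB-468. For BETi-211 these shares were 16.5%, 21.9% and 21.6%, and ZFP91 was the only other gene of the 9 called (MDA-MB-468 minus MDA-MB-231, 0.17, limma adjusted p = 0.0344). That ZFP91 call was lost with equal FPKM sums, with DMSO alone as control, with only these lines fitted and without any one of 7 of the 12 libraries (limma adjusted p = 0.0503 to 0.176). The BRD2 calls held throughout, except that for BETi-211 in MDA-MB-468 minus MDA-MB-231 with thalidomide alone as control (limma adjusted p = 0.0538).

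BRD2 (ENSG00000204256.12, chr6:32968660-32981505, plus strand, GRCh38) lies among class II genes of the major histocompatibility complex. It has 4 RefSeq start sites with a window of upstream sequence each, and the sequences before 2 of them are shown because the gene answered the compounds in opposite ways. Windows covered the 250 bases before a start, on GRCh38.p14, and 20 windows of the 9 genes were searched on both strands for 8 motifs. Of 35116 windows of all genes, 10.7% held the TATA box TATAAA and 32.0% held the CCAAT box CCAAT. The GC box GGGCGG was in 42.6%, the E-box CACGTG in 6.34% and the NRF1 motif, given by name, in 5.07%. The ETS motif CCGGAAG was in 8.52%, the cyclic AMP response element TGACGTCA in 1.65% and the YY1 motif AAGATGGCG in 0.652%. Capitals mark the matches in the sequences. The first BRD2 start has a GC box and an NRF1 motif, both on the other strand, and its stretch covers the last 149 bases, chr6:32968445-32968593, plus strand. The third start has a YY1 motif, and its stretch is chr6:32971345-32971594, plus strand.
BRD2 at the first start: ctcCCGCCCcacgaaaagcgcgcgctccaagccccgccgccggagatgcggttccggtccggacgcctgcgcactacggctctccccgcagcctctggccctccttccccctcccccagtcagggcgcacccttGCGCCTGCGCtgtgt
BRD2 at the third start: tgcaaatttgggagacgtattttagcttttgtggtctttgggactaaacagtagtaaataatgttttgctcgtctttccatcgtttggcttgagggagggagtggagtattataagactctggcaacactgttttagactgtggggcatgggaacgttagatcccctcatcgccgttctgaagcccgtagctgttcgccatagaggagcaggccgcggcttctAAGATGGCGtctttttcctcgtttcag

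The libraries do not mark the strand, and BRD2 shares its locus with other transcripts. BRD2-IT1, a transcript within a BRD2 intron on the same strand, averaged 0.352, 1.145 and 0.425 FPKM with BETd-246 and 0.193, 1.04 and 0.613 FPKM with BETi-211, against 1.11, 2.57 and 1.37 FPKM in controls. It fell with the degrader (by 0.63, by 0.73 and by 0.72) and also with the inhibitor (by 0.81, by 0.80 and by 0.55; limma adjusted p at most 0.012), unlike BRD2 itself. BRD2-IT1 was tested in the deposited scaling only. HLA-DMA, which overlaps BRD2 on the opposite strand, stood at 0.7297 to 6.6804 FPKM over all libraries, far below BRD2. The region has alternative haplotype sequences, and how reads that match several places were assigned is not given in the sources used here.

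BRD3, the BET gene at chr9:134030305-134068535 (ENSG00000169925.16, minus strand), was expressed at a much lower level per length than BRD2. In controls it averaged 3.38 ± 0.269, 4.97 ± 0.746 and 3.93 ± 0.374 FPKM, against 60.0 ± 5.26, 92.6 ± 1.21 and 65.3 ± 4.17 FPKM for BRD2 (SD, n = 4). Of all genes, 24.9%, 38.005% and 30.2% lay below BRD3, while 90.2%, 94.1% and 90.0% lay below BRD2. In MDA-MB-157, BRD3 had 2.781 and 2.823 FPKM with BETd-246 and 3.821 and 3.82 FPKM with BETi-211, against 3.484 and 3.708 FPKM with thalidomide and 3.133 and 3.187 FPKM with DMSO. In MDA-MB-231, BRD3 had 3.8 and 4.11 FPKM with BETd-246 and 5.306 and 5.295 FPKM with BETi-211, against 6.064 and 4.401 FPKM with thalidomide and 4.757 and 4.647 FPKM with DMSO. In MDA-MB-468, BRD3 had 3.138 and 3.255 FPKM with BETd-246 and 4.617 and 3.998 FPKM with BETi-211, against 4.003 and 4.406 FPKM with thalidomide and 3.784 and 3.523 FPKM with DMSO. The degrader libraries lay below all controls in each line, and the inhibitor libraries of MDA-MB-231 as well as MDA-MB-468 fell within or across the range of the controls.

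BRD3 was called lower with BETd-246 in the deposited scaling (-0.20, -0.26 and -0.23, SE 0.08; limma adjusted p = 0.0406, 0.0115 and 0.0207), but the change was 0.01, 0.05 and 0.10 after quantile normalization and not called after median-of-ratios scaling (-0.08, -0.10 and -0.08). With DMSO alone as control it was -0.13, -0.20 and -0.15, not called, and the call in MDA-MB-231 was lost with that line fitted alone (limma adjusted p = 0.113). Single libraries also decided the call. In MDA-MB-157 it was lost without either DMSO library, thalidomide replicate 2 or either BETd-246 library (limma adjusted p = 0.0599 to 0.155). In MDA-MB-231 it was lost without BETd-246 replicate 1 (limma adjusted p = 0.12), while omitting thalidomide replicate 1 gave -0.16 and omitting thalidomide replicate 2 gave -0.36. In MDA-MB-468 it was lost without DMSO replicate 1, thalidomide replicate 2 or either BETd-246 library (limma adjusted p = 0.0543 to 0.122). With BETi-211 the change was 0.14, 0.09 and 0.11, not called in any line (limma adjusted p = 0.158, 0.388 and 0.266) but called in the average of the lines (0.11, limma adjusted p = 0.038). After quantile normalization it was 0.23, 0.18 and 0.23, called in each line, and MDA-MB-157 was also called under median-of-ratios scaling (0.20) and when fitted alone. In MDA-MB-231 it was called without thalidomide replicate 1 (0.18, limma adjusted p = 0.00879) and was -0.01 without thalidomide replicate 2. BETd-246 lay below BETi-211 by 0.34, 0.35 and 0.34 (differences -0.34, -0.35 and -0.34, SE 0.09; limma adjusted p = 0.00563, 0.00521 and 0.00623). That call was lost in MDA-MB-231 without BETd-246 replicate 1 (limma adjusted p = 0.0515) and in MDA-MB-468 without BETi-211 replicate 1 (limma adjusted p = 0.0837). It was also lost in both lines after quantile normalization (-0.13 in each) and in MDA-MB-231 with that line fitted alone (limma adjusted p = 0.086). The locus also holds BRD3OS, listed as LINC00094, at 7.69 to 13.5 FPKM and not called with either compound in the deposited scaling, the only scaling tested for it.

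CRBN encodes cereblon, the receptor that thalidomide binds (ENSG00000113851.13, chr3:3144628-3179727, minus strand). In controls it averaged 17.5 ± 1.11, 13.1 ± 0.796 and 15.1 ± 0.667 FPKM (SD, n = 4), a level above 65.6%, 59.9% and 61.8% of genes. In MDA-MB-157, CRBN had 15.16 and 15.02 FPKM with BETd-246 and 13.96 and 14.17 FPKM with BETi-211, against 16.48 and 16.66 FPKM with thalidomide and 18.63 and 18.34 FPKM with DMSO. In MDA-MB-231, CRBN had 12.19 and 11.3 FPKM with BETd-246 and 11.42 and 11.62 FPKM with BETi-211, against 12.02 and 13.95 FPKM with thalidomide and 13.2 and 13.11 FPKM with DMSO. In MDA-MB-468, CRBN had 13.65 and 14.12 FPKM with BETd-246 and 11.98 and 11.67 FPKM with BETi-211, against 14.65 and 14.43 FPKM with thalidomide and 15.91 and 15.27 FPKM with DMSO. Both compounds gave lower CRBN levels than DMSO in each line, by a small amount, and in MDA-MB-231 one BETd-246 library lay within the range of the controls.

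With BETi-211, CRBN fell by 0.30, by 0.17 and by 0.32 (SE 0.04; limma adjusted p = 3.71e-05, 0.00495 and 1.1e-05). With BETd-246 the change was -0.20, -0.14 and -0.11 in the deposited scaling (limma adjusted p = 0.0013, 0.0151 and 0.0477), but -0.05, 0.04 and 0.07 under median-of-ratios scaling and -0.06, 0.04 and 0.06 after quantile normalization, with no call in either. The BETi-211 call in MDA-MB-231 was also lost under these scalings (-0.09 and -0.06, limma adjusted p = 0.0902 and 0.265). With thalidomide alone as control the BETd-246 change was called in neither MDA-MB-157 (-0.13) nor MDA-MB-468 (-0.06), and in MDA-MB-231 both compounds' calls were lost with that line fitted alone (limma adjusted p = 0.143 for BETd-246 and 0.0914 for BETi-211). In MDA-MB-231 the change was -0.19 with BETd-246 and -0.22 with BETi-211 without thalidomide replicate 1, and -0.09 and -0.12 without thalidomide replicate 2. The BETd-246 call was lost in MDA-MB-231 without BETd-246 replicate 2 (limma adjusted p = 0.217), and in MDA-MB-468 without DMSO replicate 1, either thalidomide library or either BETd-246 library (limma adjusted p = 0.067 to 0.257). Set directly against each other, BETd-246 was above BETi-211 in MDA-MB-468 (0.21 ± 0.05, limma adjusted p = 0.00283), and the difference was 0.09 in MDA-MB-157 and 0.02 in MDA-MB-231 (SE 0.05; limma adjusted p = 0.141 and 0.745), against 0.17 and 0.14, both called, under median-of-ratios scaling.

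CRBN shares its locus with TRNT1, the gene of an enzyme that adds CCA ends to transfer RNAs, on the opposite strand. TRNT1 fell with BETd-246 (by 0.43, by 0.31 and by 0.26) and with BETi-211 (by 0.45, by 0.51 and by 0.50; limma adjusted p at most 0.00103 throughout). RP11-97C16.1, an overlapping transcript on the opposite strand, averaged 1.58, 1.15 and 1.04 FPKM with BETd-246 and 2.20, 1.37 and 1.18 FPKM with BETi-211, against 3.69, 3.05 and 1.45 FPKM in controls. In MDA-MB-157 it fell by 0.86 with BETd-246 and by 0.56 with BETi-211, in MDA-MB-231 it fell by 0.91 and by 0.80, and in MDA-MB-468 it was not called. Reads in the shared stretches could belong to either gene. TRNT1 and RP11-97C16.1 were tested in the deposited scaling only. The sequence before the first CRBN start is shown as that of the thalidomide receptor gene. It gives chr3:3179728-3179967, minus strand, the first 240 bases of its window. None of the 8 motifs is in these bases, and a GC box lies in the part of the window that is not shown.
CRBN at the first start: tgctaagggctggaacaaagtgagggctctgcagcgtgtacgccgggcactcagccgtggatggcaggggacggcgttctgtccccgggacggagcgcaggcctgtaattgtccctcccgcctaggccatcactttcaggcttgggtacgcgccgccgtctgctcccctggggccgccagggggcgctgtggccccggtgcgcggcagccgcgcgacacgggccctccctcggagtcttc

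DDB1, the adaptor between receptor and cullin (ENSG00000167986.13, chr11:61299451-61342596, minus strand), was the most abundant of the ligase genes in MDA-MB-231 as well as MDA-MB-468. In MDA-MB-157, DDB1 had 94.55 and 93.5 FPKM with BETd-246 and 86.13 and 86.4 FPKM with BETi-211, against 86.4 and 86.91 FPKM with thalidomide and 86.82 and 86.77 FPKM with DMSO. In MDA-MB-231, DDB1 had 130.6 and 128.1 FPKM with BETd-246 and 128 and 127.2 FPKM with BETi-211, against 109.2 and 128.9 FPKM with thalidomide and 119.7 and 123 FPKM with DMSO. In MDA-MB-468, DDB1 had 165.7 and 164.9 FPKM with BETd-246 and 156.6 and 161.3 FPKM with BETi-211, against 155.5 and 151.4 FPKM with thalidomide and 148.6 and 155.2 FPKM with DMSO. BETd-246 libraries lay above all controls in MDA-MB-157 as well as MDA-MB-468, by a small margin beside the level. The change with BETd-246 was 0.12, 0.11 and 0.11 (SE 0.05; limma adjusted p = 0.0447, 0.0623 and 0.0448), and after quantile normalization it was 0.03, 0.00 and -0.03 with no call. Under median-of-ratios scaling it was 0.27, 0.31 and 0.30, called in each line, and with equal FPKM sums or with either control alone it was called in no line. The call in MDA-MB-157 was lost without any one of its 6 libraries (limma adjusted p = 0.0686 to 0.178), and that in MDA-MB-468 without any one except DMSO replicate 2 (limma adjusted p = 0.0531 to 0.164). In MDA-MB-231, without thalidomide replicate 2, DDB1 was called with BETd-246 (0.17, limma adjusted p = 3.25e-05) and with BETi-211 (0.15, limma adjusted p = 0.000102). Without thalidomide replicate 1 these were 0.05 and 0.03, not called. With all libraries BETi-211 gave -0.01, 0.09 and 0.06, not called, and 0.07, 0.17 and 0.14 under median-of-ratios scaling, called in MDA-MB-231 as well as MDA-MB-468. Between the compounds the DDB1 difference was 0.12, 0.02 and 0.06, not called (limma adjusted p = 0.0665, 0.81 and 0.417), and 0.20, 0.14 and 0.16 under median-of-ratios scaling, called in each line. TKFC, which overlaps DDB1 on the opposite strand, rose with BETd-246 in MDA-MB-157 (0.17) and likewise in MDA-MB-468 (0.29), and with BETi-211 by 0.14 and 0.27 in the same lines, where DDB1 was not called (limma adjusted p for TKFC = 0.0244 and 0.00018). TKFC was tested in the deposited scaling only.

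CUL4A and CUL4B are the alternative scaffolds of the ligase, encoded on chromosomes 13 and X. CUL4A (ENSG00000139842.14, chr13:113208193-113267108, plus strand) had 90.14 and 83.41 FPKM with BETd-246 and 73.66 and 74.89 FPKM with BETi-211 in MDA-MB-157, against 87.48 and 89.41 FPKM with thalidomide and 92.69 and 86.23 FPKM with DMSO. In MDA-MB-231, CUL4A had 80.7 and 81.76 FPKM with BETd-246 and 69.87 and 68.84 FPKM with BETi-211, against 76.6 and 82.72 FPKM with thalidomide and 78.63 and 80.78 FPKM with DMSO. In MDA-MB-468, CUL4A had 85.02 and 83.73 FPKM with BETd-246 and 72.52 and 72.39 FPKM with BETi-211, against 86.81 and 86.26 FPKM with thalidomide and 85.02 and 83.77 FPKM with DMSO. The inhibitor libraries lay below all other libraries of each line, while the degrader libraries lay within the range of the controls or just below it. CUL4A fell with BETi-211 by 0.26, by 0.20 and by 0.24 (SE 0.04; limma adjusted p = 2.91e-05, 0.000343 and 5.54e-05), a call that held in every alternative run. In MDA-MB-231 that change was -0.22 without thalidomide replicate 1 and -0.17 without thalidomide replicate 2. With BETd-246 the change was -0.04, 0.03 and -0.02 (limma adjusted p = 0.452, 0.572 and 0.719), but the scalings gave calls in both directions. It was 0.12, 0.23 and 0.17 under median-of-ratios scaling, called higher in each line. It was -0.13, -0.07 and -0.12 with equal FPKM sums and -0.12, -0.05 and -0.09 after quantile normalization, with lower calls under both in MDA-MB-157 as well as MDA-MB-468. BETd-246 was above BETi-211 by 0.22, 0.23 and 0.22 (limma adjusted p = 0.000622, 0.000506 and 0.000673). PCID2, a gene of messenger RNA export that overlaps CUL4A on the opposite strand at 33.96 to 77.98 FPKM, fell with BETi-211 in MDA-MB-231 as well as MDA-MB-468 (by 0.17 in each, limma adjusted p = 0.00691 and 0.00835). PCID2 was tested in the deposited scaling only.

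CUL4B (ENSG00000158290.16, chrX:120524609-120575794, minus strand) differed most between the lines. In MDA-MB-157, CUL4B had 119.4 and 122.4 FPKM with BETd-246 and 103.3 and 102.8 FPKM with BETi-211, against 107.3 and 105.7 FPKM with thalidomide and 110 and 118.3 FPKM with DMSO. In MDA-MB-231, CUL4B had 48.8 and 47.73 FPKM with BETd-246 and 44.93 and 43 FPKM with BETi-211, against 44.62 and 46.52 FPKM with thalidomide and 45.33 and 45.5 FPKM with DMSO. In MDA-MB-468, CUL4B had 72.9 and 71.64 FPKM with BETd-246 and 65.79 and 64.7 FPKM with BETi-211, against 66.66 and 62.43 FPKM with thalidomide and 68.49 and 70.44 FPKM with DMSO. The degrader libraries were the highest of each line, by a margin small beside the gap between lines. With BETd-246 the change was 0.13, 0.08 and 0.11 (SE 0.03; limma adjusted p = 0.00507, 0.0602 and 0.0153), called in MDA-MB-157 as well as MDA-MB-468. Those calls were lost after quantile normalization (0.05 and 0.03), with equal FPKM sums (0.04 and 0.01) and with DMSO alone as control (0.08 and 0.06), whereas median-of-ratios scaling gave 0.29, 0.28 and 0.29, called in each line. They were also lost without BETd-246 replicate 2 in MDA-MB-157 (limma adjusted p = 0.0649), and without thalidomide replicate 2 or BETd-246 replicate 1 in MDA-MB-468 (limma adjusted p = 0.0596 to 0.111). Without thalidomide replicate 2 the change in MDA-MB-231 was called as well (0.10, limma adjusted p = 0.0233). BETi-211 gave -0.10, -0.05 and -0.04, and was called in MDA-MB-157 (limma adjusted p = 0.0348), where DMSO replicate 1 was the single library whose omission kept the call (limma adjusted p = 0.0522 to 0.149 without each of the others). That call was also lost under median-of-ratios scaling (-0.02) and with thalidomide alone as control (-0.05), and with equal FPKM sums the change was called in MDA-MB-231 (-0.13) and likewise in MDA-MB-468 (-0.12). BETd-246 was above BETi-211 by 0.23, 0.13 and 0.15 (SE 0.04; limma adjusted p = 0.000255, 0.015 and 0.00808). That call was lost without BETi-211 replicate 2 or BETd-246 replicate 1, in MDA-MB-231 (limma adjusted p = 0.0999 to 0.136) as in MDA-MB-468 (limma adjusted p = 0.0571 to 0.0591), in both after quantile normalization (0.08 and 0.09), and in MDA-MB-231 with equal FPKM sums (0.11).

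RBX1, the RING subunit that binds the ubiquitin-conjugating enzyme (ENSG00000100387.8, chr22:40951347-40973309, plus strand), was highest in MDA-MB-468. In MDA-MB-157, RBX1 had 47.74 and 51.32 FPKM with BETd-246 and 42.55 and 41.63 FPKM with BETi-211, against 40.27 and 39.59 FPKM with thalidomide and 42.3 and 42.02 FPKM with DMSO. In MDA-MB-231, RBX1 had 42.7 and 41.71 FPKM with BETd-246 and 38.3 and 39.63 FPKM with BETi-211, against 31.55 and 40.82 FPKM with thalidomide and 39.43 and 37.81 FPKM with DMSO. In MDA-MB-468, RBX1 had 92.17 and 90.52 FPKM with BETd-246 and 81.66 and 85.21 FPKM with BETi-211, against 82.1 and 77.02 FPKM with thalidomide and 85.58 and 76.4 FPKM with DMSO. The degrader libraries again exceeded all controls. The change with BETd-246 was 0.26, 0.18 and 0.19 (SE 0.07; limma adjusted p = 0.00555, 0.0516 and 0.0371), and 0.42, 0.37 and 0.37 under median-of-ratios scaling, called in each line. In MDA-MB-468 the call was lost with equal FPKM sums (0.09), after quantile normalization (0.12) and with DMSO or thalidomide alone as control (0.17 and 0.20). In MDA-MB-231 the change was also called after quantile normalization (0.18), with a pseudocount of 0.1, with a filter at 5 FPKM (0.18 in each) and with thalidomide alone (0.23). The call was lost in MDA-MB-157 without BETd-246 replicate 2 (limma adjusted p = 0.0836), and in MDA-MB-468 without DMSO replicate 2, thalidomide replicate 2 or either BETd-246 library (limma adjusted p = 0.0954 to 0.162). Without thalidomide replicate 2, RBX1 in MDA-MB-231 was called with BETd-246 (0.27, limma adjusted p = 0.000134) and with BETi-211 (0.15, limma adjusted p = 0.00892), and without thalidomide replicate 1 the changes were 0.09 and -0.03, not called. With all libraries BETi-211 gave 0.04, 0.06 and 0.06 and no call. Set against BETi-211, BETd-246 gave 0.23, 0.11 and 0.13 (limma adjusted p = 0.0319, 0.299 and 0.225), and 0.31, 0.23 and 0.23 under median-of-ratios scaling, called in each line. The call in MDA-MB-157 was lost without either BETi-211 library or BETd-246 replicate 2 (limma adjusted p = 0.084 to 0.197).

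**Figure D2:**
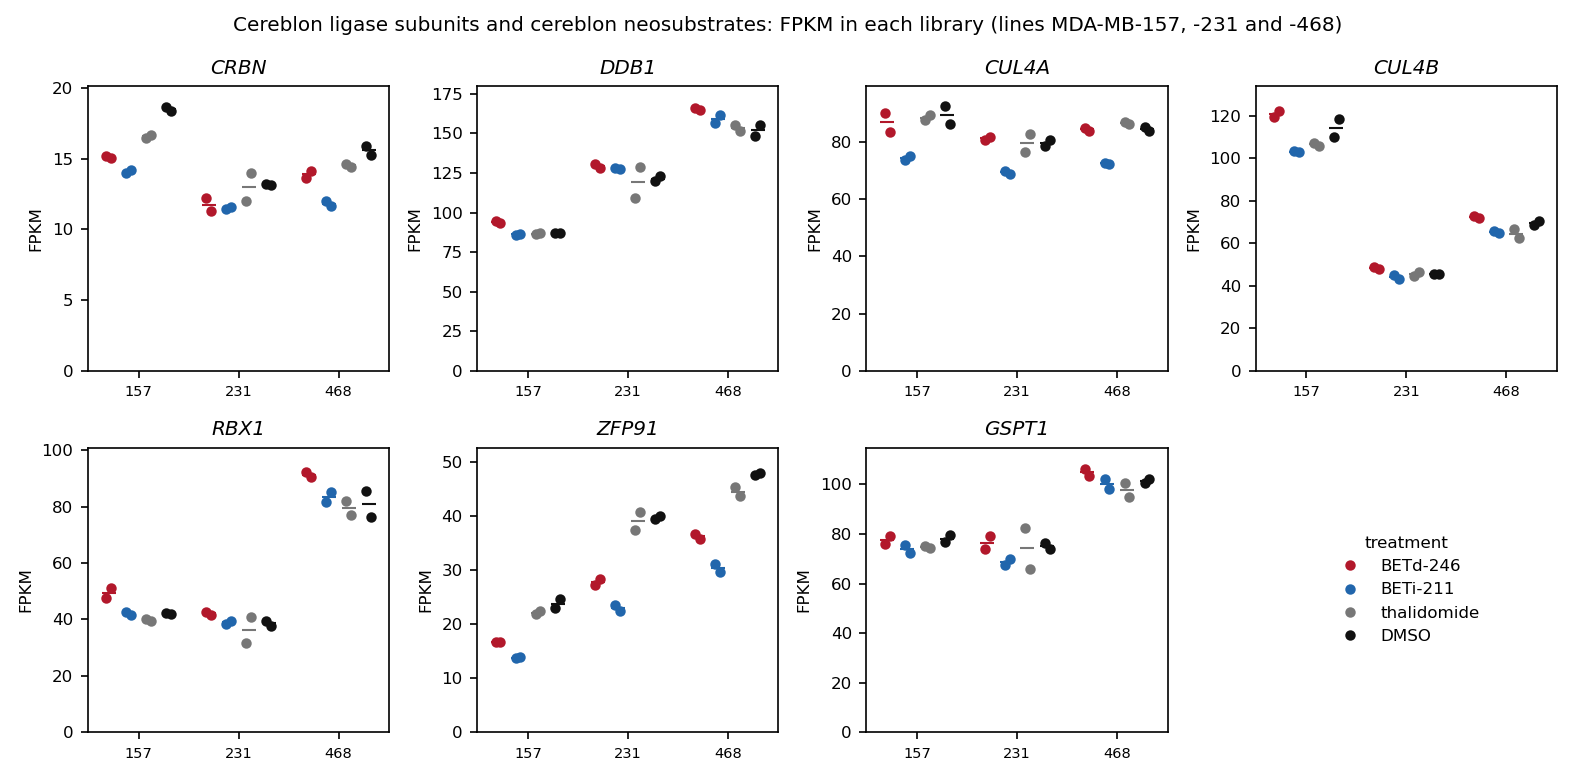
Levels of CRBN, DDB1, CUL4A, CUL4B, RBX1, ZFP91 and GSPT1 in FPKM (vertical axes, linear from 0), 1 panel per gene, by line and treatment. Points are libraries and bars the means of 2 libraries. ZFP91 is lower with BETd-246 and lowest with BETi-211 in each line, CUL4A is lower with BETi-211, and the CUL4B and RBX1 panels differ more between lines than between treatments.

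ZFP91, the gene of a zinc finger protein that cereblon recruits in the presence of thalidomide and its analogues (ENSG00000186660.14, chr11:58579111-58621042, plus strand), fell with both compounds and more with the inhibitor. In MDA-MB-157, ZFP91 had 16.64 and 16.75 FPKM with BETd-246 and 13.7 and 13.89 FPKM with BETi-211, against 21.93 and 22.39 FPKM with thalidomide and 22.94 and 24.7 FPKM with DMSO. In MDA-MB-231, ZFP91 had 27.3 and 28.35 FPKM with BETd-246 and 23.51 and 22.46 FPKM with BETi-211, against 37.44 and 40.77 FPKM with thalidomide and 39.47 and 39.94 FPKM with DMSO. In MDA-MB-468, ZFP91 had 36.79 and 35.85 FPKM with BETd-246 and 31.24 and 29.73 FPKM with BETi-211, against 45.33 and 43.65 FPKM with thalidomide and 47.57 and 48.01 FPKM with DMSO. The 3 levels did not overlap in any line: inhibitor lowest, degrader next, controls highest. With BETd-246, ZFP91 fell by 0.44, by 0.49 and by 0.34 (SE 0.04; limma adjusted p = 7.72e-08, 2.01e-08 and 1.58e-06). With BETi-211, it fell by 0.70, by 0.75 and by 0.58 (limma adjusted p = 4.45e-10, 1.38e-10 and 2.11e-09). BETd-246 was above BETi-211 by 0.26, 0.27 and 0.25 (limma adjusted p = 0.000192, 0.000143 and 0.000284). All these calls held in every alternative run, but the BETd-246 change shrank to -0.28, -0.29 and -0.15 under median-of-ratios scaling. In MDA-MB-231 the change without thalidomide replicate 1 was -0.52 with BETd-246 and -0.78 with BETi-211. Without thalidomide replicate 2 it was -0.46 and -0.72. These are transcript levels, and protein degradation through cereblon is not read by this assay.

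The window before the ZFP91 start is shown because the gene fell with both compounds. It spans chr11:58578813-58579062 on the plus strand and holds the CCAAT box in 2 places, on the other strand, and a GC box, the motifs found in 32.0% and 42.6% of windows of all genes.
ZFP91: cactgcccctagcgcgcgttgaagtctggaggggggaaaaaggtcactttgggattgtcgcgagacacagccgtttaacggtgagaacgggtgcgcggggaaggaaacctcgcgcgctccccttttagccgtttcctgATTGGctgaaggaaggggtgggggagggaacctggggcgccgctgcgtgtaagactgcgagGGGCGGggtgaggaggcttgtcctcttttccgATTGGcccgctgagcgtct

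GSPT1 encodes the translation termination factor eRF3a, which some cereblon ligands recruit for degradation (ENSG00000103342.12, chr16:11868128-11916082, minus strand). In MDA-MB-157, GSPT1 had 76.13 and 79.27 FPKM with BETd-246 and 75.63 and 72.47 FPKM with BETi-211, against 75.16 and 74.47 FPKM with thalidomide and 76.84 and 79.51 FPKM with DMSO. In MDA-MB-231, GSPT1 had 73.88 and 79.01 FPKM with BETd-246 and 67.47 and 69.94 FPKM with BETi-211, against 82.61 and 66.01 FPKM with thalidomide and 76.49 and 73.92 FPKM with DMSO. In MDA-MB-468, GSPT1 had 106.4 and 103.4 FPKM with BETd-246 and 102 and 98.26 FPKM with BETi-211, against 100.7 and 94.92 FPKM with thalidomide and 100.5 and 102.1 FPKM with DMSO. Compound and control libraries overlapped except for BETd-246 in MDA-MB-468. No change was called with BETd-246 (0.02, 0.04 and 0.07; limma adjusted p = 0.792, 0.673 and 0.333) or with BETi-211 (-0.05, -0.12 and 0.01), nor between the compounds (0.07, 0.15 and 0.07). Under median-of-ratios scaling the BETd-246 change was 0.18, 0.23 and 0.26, called in each line, and the compounds differed in MDA-MB-231 (0.27). With equal FPKM sums BETi-211 was called in MDA-MB-231 (-0.19). In MDA-MB-231, GSPT1 was called with BETd-246 without thalidomide replicate 1 (0.12, limma adjusted p = 0.0189) and with BETi-211 without thalidomide replicate 2 (-0.20, limma adjusted p = 0.000347). GSPT2, a copy of GSPT1 on another chromosome, could share reads with it.

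**Figure D3:**
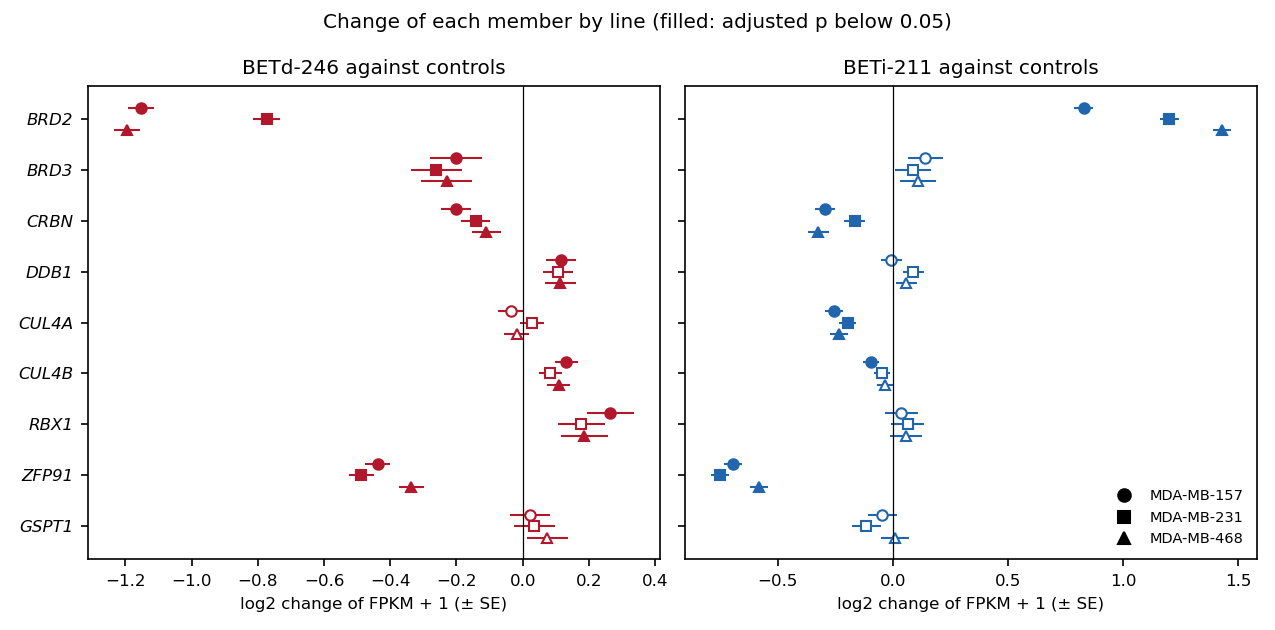
Log2 change against the controls of the same line (horizontal axis, log2(FPKM + 1) scale, bars are SE) for the 9 genes, with BETd-246 left and BETi-211 right. Circles are MDA-MB-157, squares MDA-MB-231 and triangles MDA-MB-468, filled where the limma adjusted p was below 0.05. BRD2 lies between -1.19 and -0.77 on the left and between 0.83 and 1.43 on the right, and the other 8 genes lie closer to 0; the filled BRD3, CRBN and DDB1 points on the left change side in 1 or more lines under another scaling.

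Across the 9 genes, BETd-246 gave 3 higher and 4 lower calls in MDA-MB-157, where 51.5% of all genes were called, 19% higher and 32.4% lower. In MDA-MB-231 it gave 0 higher and 4 lower, beside 48.1% of all genes called, 14.8% higher and 33.3% lower. In MDA-MB-468 it gave 3 higher and 4 lower, beside 53.9% called, 20.1% higher and 33.7% lower. BETi-211 gave 1 higher and 4 lower in MDA-MB-157, beside 45.8% called, 14.9% higher and 30.9% lower. In MDA-MB-231 it gave 1 higher and 3 lower, beside 50.1% called, 18.7% higher and 31.4% lower. In MDA-MB-468 it gave 1 higher and 3 lower, beside 53.9% called, 21.3% higher and 32.5% lower. A call is common in each of these contrasts. Between the compounds 6, 5 and 6 of the 9 were called, beside 46.5%, 41.7% and 43.3% of all genes. The median change of the 9 with BETd-246 was -0.04, 0.03 and -0.02, beside -0.03, -0.05 and -0.03 over all genes. Read against that background, the counts of calls show nothing about the 9 genes as a group. By size, BRD2 changed most of the 9 in every line with each compound, and ZFP91 next. The contrasts of the 2 compounds share their control libraries.

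The scaling decided the sign of some of the small changes. FPKM are shares of a library, and the median change of all genes with BETd-246 was 0.09, 0.08 and 0.09 under median-of-ratios scaling and -0.10, -0.12 and -0.10 when each library was scaled to the same FPKM sum. Of the genes called with BETd-246, 37%, 30.7% and 37.4% were higher as deposited, against 64.7%, 65% and 64.1% under median-of-ratios scaling, 62%, 62.1% and 62.4% after quantile normalization and 15.8%, 9.88% and 17.9% with equal sums. With BETi-211 the share was 32.6%, 37.4% and 39.6% as deposited, 50.5%, 53.6% and 54.4% under median-of-ratios scaling and 48.8%, 50.5% and 51.1% after quantile normalization. Between the compounds it was 52.1%, 42.6% and 46.5% as deposited and 67.5%, 65.6% and 66% under median-of-ratios scaling. BRD2 and ZFP91 kept their direction and call under each of these scalings.

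**Figure D4:**
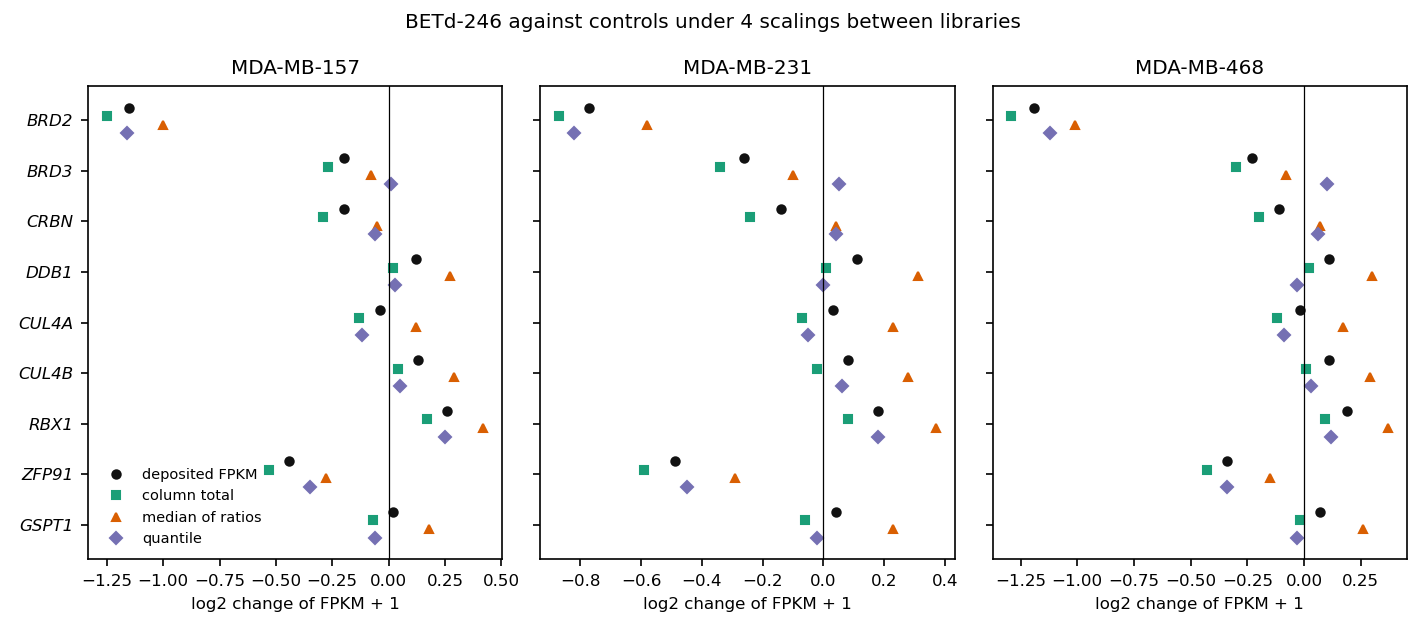
Log2 change with BETd-246 against controls for the 9 genes in each line under 4 scalings: the deposited FPKM, equal column totals, median of ratios and quantile normalization. BRD2, ZFP91 and RBX1 stay on the same side of 0 under all 4, whereas BRD3, CRBN, DDB1, CUL4A, CUL4B and GSPT1 cross it in at least 1 line.

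Thalidomide alone was set against DMSO to see whether the cereblon ligand changed the genes. None of the 9 was called by limma, 0 in each line and 0 in the average over lines, where 26, 0 and 0 genes and, in the average, 223 genes of the table were called (0.184%, 0%, 0% and 1.58%). At an unadjusted p below 0.05 there were 4, 0 and 2 of the 9 in the lines and 5 in the average, beside 2093, 766, 1980 and 3497 genes. The smallest adjusted p was that of BRD2 in the average (0.10, limma adjusted p = 0.0579), and in MDA-MB-157 BRD2 was 0.21 ± 0.05 above DMSO (limma adjusted p = 0.0785). CRBN averaged -0.09 (limma adjusted p = 0.0973) and ZFP91 averaged -0.07 (limma adjusted p = 0.104). The average for GSPT1 was -0.05 (limma adjusted p = 0.503). The null count depended on libraries: without thalidomide replicate 2 of MDA-MB-231 7 of the 9 were called in the average, beside 27.6% of all genes in the same fit. Without DMSO replicate 1 of MDA-MB-157 3 were called, beside 14.4%, and 1 was without thalidomide replicate 1 of MDA-MB-468 (4.17%) or of MDA-MB-231 (3.83%). Without other single libraries, such as either DMSO library of MDA-MB-468, nearly all calls over the table were lost. Effects of thalidomide of the sizes seen here were not resolved with 2 libraries a group.

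Lines differed from each other in nearly all 9 genes at baseline, as did most genes of the table. In controls, 8 of 9 were called for MDA-MB-157 against MDA-MB-231, 9 of 9 for MDA-MB-468 against MDA-MB-231 and 8 of 9 for MDA-MB-157 against MDA-MB-468, beside 87.4%, 86.2% and 88% of all genes. CUL4B averaged 110.3 ± 5.61 FPKM in MDA-MB-157 and 67.0 ± 3.42 FPKM in MDA-MB-468, against 45.5 ± 0.787 FPKM in MDA-MB-231 (SD, n = 4), and all 3 pairs differed without overlap. MDA-MB-157 thus had 2.42 times the CUL4B level of MDA-MB-231. RBX1 averaged 80.3 ± 4.37 FPKM in MDA-MB-468, against 37.4 ± 4.09 FPKM in MDA-MB-231 and 41.0 ± 1.32 FPKM in MDA-MB-157, 2.15 times the level of MDA-MB-231. RBX1 libraries of MDA-MB-157 overlapped those of MDA-MB-231 (0.14, limma adjusted p = 0.0368), with -0.02 under median-of-ratios scaling. There was no call with DMSO or thalidomide libraries alone (0.12 and 0.15, limma adjusted p = 0.171 and 0.102). Nor was there a call with only these lines fitted (0.14, limma adjusted p = 0.0544). That RBX1 call was lost without any one of the 4 MDA-MB-157 controls, without DMSO replicate 2 of MDA-MB-231 or without thalidomide replicate 1 of MDA-MB-231 (limma adjusted p = 0.0595 to 0.265).

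The order of the lines varied by gene. ZFP91 averaged 22.99 ± 1.21 FPKM in MDA-MB-157, against 39.4 ± 1.42 FPKM in MDA-MB-231 and 46.1 ± 2.03 FPKM in MDA-MB-468 (SD, n = 4), and DDB1 ran the same way at 86.7 ± 0.224, 120.2 ± 8.25 and 152.7 ± 3.29 FPKM. CRBN was highest in MDA-MB-157 (0.40 above MDA-MB-231 and 0.20 above MDA-MB-468; limma adjusted p = 2.2e-08 and 5.76e-05). BRD2 was lower in MDA-MB-157 as well as MDA-MB-468 than in MDA-MB-231 (-0.62 and -0.50; limma adjusted p = 1.41e-11 and 2.89e-10). BRD2 libraries of MDA-MB-157 overlapped those of MDA-MB-468 (-0.12, limma adjusted p = 0.00249), with 0.01 after quantile normalization and no call with equal FPKM sums or thalidomide libraries alone. BRD3 was likewise lower in MDA-MB-157 as well as MDA-MB-468 than in MDA-MB-231 (-0.44 and -0.27; limma adjusted p = 6.17e-06 and 0.00084). The BRD3 call for MDA-MB-157 against MDA-MB-468 was lost with equal FPKM sums (-0.13) and with DMSO or thalidomide libraries alone (-0.16 and -0.18). It was also lost without any one of 3 single libraries. CUL4A varied least between the lines, at 89.0 ± 2.81, 79.7 ± 2.65 and 85.5 ± 1.35 FPKM. MDA-MB-468 was 0.10 above MDA-MB-231 in CUL4A (limma adjusted p = 0.00609), with -0.02 under median-of-ratios scaling and -0.04 after quantile normalization. That CUL4A call was also lost with equal FPKM sums (0.03, limma adjusted p = 0.207) and with DMSO libraries alone (0.08, limma adjusted p = 0.0934). MDA-MB-157 was 0.16 above MDA-MB-231 in CUL4A (limma adjusted p = 0.000153), with 0.00 under median-of-ratios scaling. MDA-MB-157 against MDA-MB-468 was not called in CUL4A as deposited. It was called at 0.23 after quantile normalization and at 0.10 with equal FPKM sums (limma adjusted p = 7.5e-07 and 0.00109). GSPT1 averaged 99.6 ± 3.18 FPKM in MDA-MB-468, against 74.8 ± 6.87 FPKM in MDA-MB-231 and 76.5 ± 2.24 FPKM in MDA-MB-157, which did not differ by the test from each other (0.04, limma adjusted p = 0.498; called without thalidomide replicate 1 of MDA-MB-231, limma adjusted p = 0.00274).

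The other genes of the ligase pathway and of the BET and cereblon partners were described in 11 lists, by the average of the lines. With BETd-246 70.1% of all genes were called in the average, 27.9% higher and 42.2% lower, with a median of -0.04, and under median-of-ratios scaling these shares were 51.4% and 27.6% with a median of 0.09. The BETd-246 counts of each list are therefore also given under that scaling, which was added after the data had been seen. Counts with BETi-211 are given as deposited only.

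Of 12 measured genes of adaptors and assembly, 2 were higher and 7 lower with BETd-246 (median -0.08), but 8 higher and 4 lower under median-of-ratios scaling (median 0.09). DCUN1D3, a regulator of cullin neddylation, had 1.94 and 2.29 FPKM with BETd-246 and 5.23 and 4.69 FPKM with BETi-211 in MDA-MB-157, against 5.88 and 6.22 FPKM with thalidomide and 6.28 and 5.57 FPKM with DMSO. In the average it fell by 1.18 ± 0.04 with BETd-246 (SE, limma adjusted p = 3.42e-14) and by 0.19 with BETi-211. SENP8, the protease that matures NEDD8, fell by 0.58 with BETd-246 and rose by 0.15 with BETi-211. CAND1, the exchange factor of cullin complexes, fell by 0.23 with BETd-246. The calls of all 3 with BETd-246 held under each scaling.

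The COP9 signalosome, which removes NEDD8 from cullins, had 5 higher and 1 lower of 9 genes with BETd-246 (median 0.10), 8 higher and 0 lower under median-of-ratios scaling, and 2 higher and 2 lower with equal FPKM sums, a scaling under which 13.3% of all genes were called higher and 53.6% lower. GPS1 and COPS7A rose by 0.27 and 0.23, and COPS2 was called lower (-0.17), with 0.01 under median-of-ratios scaling. Of 7 genes of ubiquitin-conjugating enzymes, 1 was higher and 3 lower, but 4 higher and 1 lower under median-of-ratios scaling. UBE2G1, known to act with this ligase, fell by 0.28 ± 0.02 with BETd-246 (SE, limma adjusted p = 4.2e-10), with 0.03 for BETi-211 (limma adjusted p = 0.151). UBE2D4 rose by 0.16 with BETd-246, and CDC34 was called lower (-0.18) but not under median-of-ratios scaling (limma adjusted p = 0.893). UBE2D1 rose with BETi-211 in the average by 0.83 ± 0.03 (SE, limma adjusted p = 2.17e-12), with 0.01 for BETd-246 (limma adjusted p = 0.792). It was picked out after its values were seen.

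Other substrate receptors that use DDB1 and CUL4 were higher in 3 and lower in 16 of 26 genes with BETd-246 (median -0.12), but higher in 12 and lower in 10 under median-of-ratios scaling (median 0.04). GRWD1, a histone chaperone, fell by 0.52, DTL, the receptor of replication-coupled degradation, by 0.49, and AMBRA1, the receptor for D-type cyclins, by 0.42. DTL and GRWD1 fell with BETi-211 by 0.53 and by 0.59. Other cullins and RNF7 had 2 higher and 4 lower of 7 as deposited, and 5 higher and 0 lower under median-of-ratios scaling. CUL1 was called lower (-0.22, with -0.04 and no call under that scaling), as were CUL3 (-0.17, with 0.01) and CUL2 (-0.08, with 0.10 and called higher).

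Among other proteins that cereblon ligands recruit, the transcripts were mostly lower with both compounds as deposited. With BETd-246 1 of 17 genes was higher and 13 lower (median -0.34), and 4 were higher and 12 lower under median-of-ratios scaling (median -0.18). With BETi-211 2 were higher and 12 lower (median -0.22), where 67.2% of all genes were called, 26.6% higher and 40.6% lower. ZBTB39, a zinc finger gene, had 0.347 and 0.395 FPKM with BETd-246 and 1.71 and 1.70 FPKM with BETi-211 in MDA-MB-157, against 2.63 and 2.81 FPKM with thalidomide and 2.82 and 2.65 FPKM with DMSO. PATZ1, another, had 6.20 and 5.79 FPKM with BETd-246 and 6.99 and 7.40 FPKM with BETi-211 in MDA-MB-468, against 16.7 and 16.03 FPKM with thalidomide and 15.6 and 15.7 FPKM with DMSO. The compound libraries of both genes lay below all controls of these lines. In the average ZBTB39 fell by 1.35 ± 0.03 and PATZ1 by 1.30 ± 0.03 with BETd-246 (SE, limma adjusted p = 2.77e-16 and 9.72e-16), and by 0.41 and by 0.60 with BETi-211. GSPT2, the copy of GSPT1, fell by 0.67 with BETd-246 in the average and was at or near 0 in all 8 libraries of MDA-MB-468. With thalidomide against DMSO, ZNF692 was the single gene of this list called (0.35 ± 0.08, SE, limma adjusted p = 0.0487), beside 1.58% of all genes. Nearly all calls of that contrast were lost without certain single libraries.

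Natural partners of cereblon were split, with 4 higher and 4 lower of 8 genes with BETd-246, and 6 higher and 2 lower under median-of-ratios scaling. PRKAB1, a subunit of AMP-activated protein kinase, fell by 0.75 with BETd-246 and by 0.56 with BETi-211. BSG, a chaperone of lactate transporters, and APP, the amyloid precursor, rose by 0.27 and 0.21 with BETd-246. The partners of GSPT1 in translation termination and nonsense-mediated decay had 1 higher and 5 lower of 11 as deposited, and 5 higher and 2 lower under median-of-ratios scaling. UPF2 fell by 0.38 and UPF3B by 0.29, and UPF1 was called lower (-0.21) but not under median-of-ratios scaling (-0.03).

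Bromodomain genes outside the BET family were higher in 4 and lower in 20 of 30 with BETd-246 (median -0.27), and higher in 10 and lower in 14 under median-of-ratios scaling (median -0.11). With BETi-211 4 were higher and 22 lower (median -0.21), where 26.6% of all genes were called higher and 40.6% lower. BRPF1, a scaffold of a histone acetyltransferase complex, had 1.816 and 1.952 FPKM with BETd-246 and 6.426 and 6.407 FPKM with BETi-211 in MDA-MB-468, against 7.244 and 7.78 FPKM with thalidomide and 6.957 and 7.154 FPKM with DMSO. BRPF1 fell by 1.42 ± 0.02 (SE, limma adjusted p = 1.1e-17) and its paralogue BRD1 by 1.17 ± 0.03 (limma adjusted p = 1.24e-15) with BETd-246. With BETi-211 BRD1 fell by 0.43, and BRPF1 was called lower (-0.14) but not after quantile normalization (-0.01). BRD8 fell by 0.58 with BETd-246. With thalidomide, SMARCA4 and TRIM28 of this list were called higher (0.17 and 0.14, limma adjusted p = 0.0494 and 0.0423), beside 1.58% of all genes. Nearly all calls of that contrast were lost without certain single libraries.

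Known partners of BET proteins had 1 higher and 4 lower of 9 with BETd-246 (median -0.08), but 5 higher and 1 lower under median-of-ratios scaling (median 0.10). JMJD6, a Jumonji-domain protein, fell by 1.02 ± 0.03 with BETd-246 (SE, limma adjusted p = 8.61e-14) and by 0.88 with BETi-211. CSNK2B, a subunit of casein kinase 2, rose by 0.17 with BETd-246, and WHSC1L1, also named NSD3, was called lower (-0.20) but not under median-of-ratios scaling (-0.03). The neighbours of BRD2 in the major histocompatibility complex had 7 higher and 2 lower of 9 with BETd-246 (median 0.10), 7 higher and 1 lower under median-of-ratios scaling (median 0.25), and 1 higher and 2 lower with equal FPKM sums. The shares of all genes called with equal FPKM sums are those given for the COP9 signalosome. HLA-DPA1 rose by 0.15 and RXRB fell by 0.38, and RING1 was called lower (-0.14), with 0.03 under median-of-ratios scaling and 0.06 after quantile normalization.

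**Figure D5:**
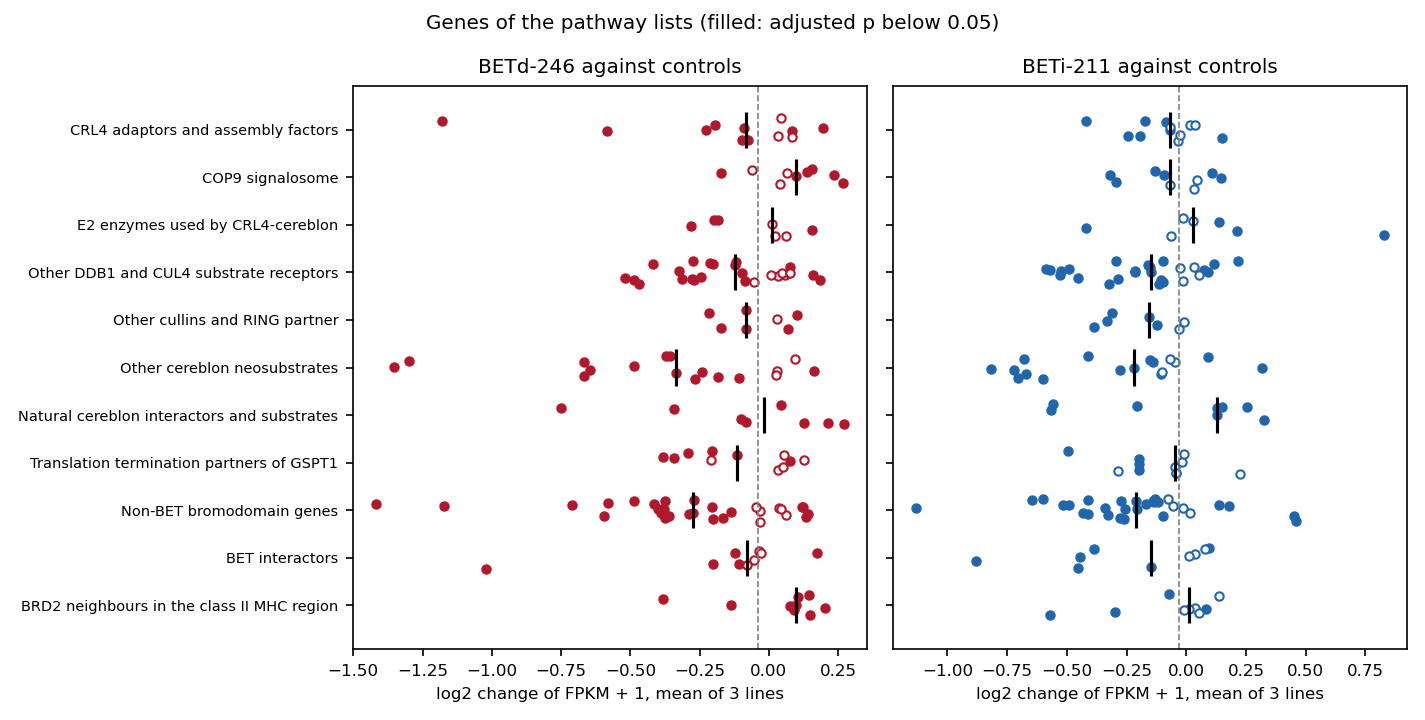
Log2 change averaged over the 3 lines (horizontal axis, log2(FPKM + 1) scale) for the genes of 11 lists, with BETd-246 left and BETi-211 right. Each point is a gene, filled where called, the black bar is the median of the list and the dashed line the median of all genes. The other cereblon neosubstrates and the non-BET bromodomain genes have the lowest medians with BETd-246, at -0.34 and -0.27 as deposited; a scaling such as the median of ratios shifts all points to the right.

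The genes whose level followed each gene most closely over the 12 group means were taken from 9374 genes with a mean of at least 5 FPKM. These correlations across 12 means share lines and libraries and are descriptions. For BRD2 they included RYBP and C17orf96 (Pearson's r 0.958 and 0.956). For BRD3 they were HGH1, C2CD2L and C11orf84 (0.957, 0.954 and 0.95), for CRBN RBM23, BRCA1 and RCOR3 (0.972, 0.969 and 0.965), and for GSPT1 METTL15, CYB561 and OMA1 (0.991, 0.99 and 0.99). With the control mean of each line removed, which left 6 means, ZNF253, DYRK3 and C16orf72 were closest to BRD2 (0.9997, 0.998 and 0.998). DYRK3, a kinase, fell with BETd-246 by 1.09, by 0.87 and by 1.07 and rose with BETi-211 by 0.58, 0.75 and 1.08, and ZNF253 fell by 1.37, by 0.98 and by 1.42 and rose by 0.36, 0.71 and 0.91. C16orf72 changed by -1.09, -0.92 and -1.01 with BETd-246. With BETi-211 its change was -0.01, 0.21 and 0.38, not called in MDA-MB-157, so it did not share the opposite response in that line.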

How the data were processed

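RNA sequencing was done on 24 libraries of 12 groups, 2 each. The authors deposited 1 table of 14114 genes with a column of FPKM per library, each matched to its sample by name. The unit was inferred from the values, and the sources used here name neither the FPKM program nor the annotation or gene filter. Tools were Bowtie 0.12.8 and bcl2fastq 2.17.1.14 on the build GRCh38.p5, per the submitters' processing notes. Per the labels' protocols, ribosomal RNA was depleted and the library kit does not mark the strand. The table holds no counts, so no counting interval was computed, and depth was estimated from the step 1 fragment makes at low values.

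The test was limma 3.58.1, in R 4.3.3, on log2(FPKM + 1), two-sided, with 12 residual and 3.32 prior degrees of freedom, a variance trend and no block. Log2 changes are on that scale, which understates the change of low genes. A filter at a group mean of 1 FPKM removed 0 genes. The method was tested on simulated data in which a small share of genes changed, in a single group. Such data do not test the scaling between libraries. Alternatives were a pseudocount of 0.1, a filter at 5 FPKM, equal FPKM sums, median-of-ratios scaling, quantile normalization, no variance trend, each control alone, fits of only the lines compared, a replicate block and leaving out each library. Replicate numbers were not taken as pairs, since the labels do not say that a number marks a shared day or batch.

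The 9 genes, the lists and the tests were chosen with earlier results of these data known. Genes named beside the 9 were, per list, the 3 with the smallest adjusted p for BETd-246 in the average of the lines, and, for BRD2, BRD3, CRBN and GSPT1, the 3 with the highest Pearson correlation, of which 1 for BRD2 is not reported here. Upstream sequences are from RefSeq on GRCh38.p14, and gene coordinates from GENCODE version 29 on GRCh38. All 9 genes had a RefSeq window.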

Additional observations from a re-analysis of the deposited data

Results flagged for a closer look

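Differences of a compound's effect between lines were tested as interactions in the same limma fit, with Benjamini-Hochberg adjustment over all genes. BRD2 was called in 5 of the 6 comparisons of this kind. For BETd-246 the BRD2 difference was -0.38 for MDA-MB-157 minus MDA-MB-231 and -0.42 for MDA-MB-468 minus MDA-MB-231. For BETi-211 the BRD2 difference was -0.37 for MDA-MB-157 minus MDA-MB-231, 0.23 for MDA-MB-468 minus MDA-MB-231 and -0.60 for MDA-MB-157 minus MDA-MB-468. ZFP91 differed for BETi-211 by 0.17 for MDA-MB-468 minus MDA-MB-231, a call lost under 3 other settings and without any one of 7 of the 12 libraries. BRD2 was higher in the controls of MDA-MB-231 than in those of MDA-MB-157 or of MDA-MB-468, and whether its level bears on the size of the response was not tested.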

How the results depend on the processing

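The calls of BRD2 and ZFP91 with both compounds, and that of CUL4A with BETi-211, held under every alternative run. Values that turned were small. After quantile normalization BRD3 with BETd-246 was 0.01, 0.05 and 0.10 in the lines in turn, MDA-MB-157 first and MDA-MB-468 last. CRBN with BETd-246 was 0.04 in MDA-MB-231 under median-of-ratios scaling and 0.04 after quantile normalization, and 0.07 and 0.06 in MDA-MB-468. CUL4A with BETd-246 was 0.12, 0.23 and 0.17 under median-of-ratios scaling, called higher in each line, and with equal FPKM sums and after quantile normalization it was called lower at -0.13 and -0.12 in MDA-MB-157 and at -0.12 and -0.09 in MDA-MB-468. DDB1 in MDA-MB-468 was -0.03 after quantile normalization. Between lines in controls, BRD2 in MDA-MB-157 against MDA-MB-468 was 0.01 after quantile normalization, CUL4A in MDA-MB-468 against MDA-MB-231 was -0.02 and -0.04 under the same scalings, and RBX1 in MDA-MB-157 against MDA-MB-231 was -0.02 under median-of-ratios scaling. The cause was not tested.

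Counts of the 9 genes called moved as follows. With BETd-246, MDA-MB-157 had 4 instead of 7 after quantile normalization and with DMSO alone as control. Quantile normalization moved the calls over all genes there from 7263 to 8628. MDA-MB-231 had 7 instead of 4 under median-of-ratios scaling, beside 8766 instead of 6788 of all genes, and 2 with the line fitted alone. MDA-MB-468 had 3 instead of 7 after quantile normalization and with DMSO alone, and 4 with thalidomide alone. Quantile normalization moved the calls over all genes there from 7602 to 8682. Between the compounds, MDA-MB-231 had 9 instead of 5 under median-of-ratios scaling and 3 after quantile normalization. Beside these, 8039 and 6909 of all genes were called, against 5887 as deposited. For the other settings in this paragraph, calls over all genes are not given. The difference of the BETi-211 effect for MDA-MB-468 minus MDA-MB-231 had 1 instead of 2 with either control alone and with only these lines fitted. Thalidomide against DMSO, averaged, had 2 instead of 0 after quantile normalization and 1 with the filter at 5 FPKM, and could not be computed with single lines fitted.

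Leaving out 1 library moved the BETd-246 counts to 3 to 6 in MDA-MB-157 (3 without BETd-246 replicate 2), 3 to 7 in MDA-MB-231 (7 if its thalidomide replicate 2 is left out) and 2 to 6 in MDA-MB-468 (2 without thalidomide replicate 2 or BETd-246 replicate 1, 3 without BETd-246 replicate 2 and 4 without DMSO replicate 1). For BETi-211 they were 4 to 5 in MDA-MB-157, 4 to 7 in MDA-MB-231 (7 if its thalidomide replicate 2 is left out) and 4 in MDA-MB-468 throughout. Between the compounds they were 5 to 6, 3 to 5 (3 without BETd-246 replicate 1) and 5 to 6. For differences between lines they were 1 to 2 for BETd-246 in MDA-MB-468 minus MDA-MB-231 (2 without thalidomide replicate 1 of MDA-MB-231), and 1 to 4 for BETi-211 both for MDA-MB-157 minus MDA-MB-231 and for MDA-MB-468 minus MDA-MB-231 (4 without thalidomide replicate 2 of MDA-MB-231). The second of these was 1 without any of 7 single libraries. For thalidomide the range was 0 to 7.

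With the replicate block the BETd-246 counts were 5, 4 and 5 and other counts did not change. The block ended the BETd-246 calls of BRD3 in MDA-MB-157 (limma adjusted p = 0.0529), CRBN in MDA-MB-468 (0.0711) and DDB1 in MDA-MB-157 as well as MDA-MB-468 (0.0502 each). The correlation of deviations between same-numbered samples was -0.207 to 0.335 over pairs of groups. These values do not settle whether the numbers pair samples, and the main fit does not take them as pairs. With 2 libraries a group, changes of the size of those that turned are not resolved, and depth is known only as an estimate.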
